A study of Mus musculus with 24 samples.

Results

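HIBI was compared with sham surgery in the cortex of neonatal mice across 410 microRNAs (miRNAs). Of 1531 mouse miRNA entries in the cortex table, these were the 410 whose mean over the 8 cortex libraries was above 10 CPM, the usual scaling of a count to the total of its library, here the total of mouse miRNAs. Levels are given below as CPM after TMM (trimmed mean of M-values) normalization. The 4 HIBI libraries came from pups 1, 4, 5, and 7, and the 4 sham libraries from pups 2, 3, 6, and 8. All were CD1 mice of both sexes at postnatal day 9, carried no transgene, and gave the right cortex, which is the side of the vessel ligation. HIBI (hypoxic-ischemic brain injury) was made by cauterizing the right common carotid artery under isoflurane, with 2 h of recovery followed by 30 min in 8% oxygen. Sham pups had the same anesthesia, local analgesia, and neck dissection, without ligation, and were kept apart from the dam in room air. Tissue was taken 30 min after the injury, so only the earliest part of the response was sampled. Ligation and low oxygen always went together, and their parts cannot be told apart. The cortex was sampled whole: fewer cells of a type and less RNA per cell cannot be told apart in such tissue.

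MiRNAs are short RNAs cut from hairpin precursors. Loaded into an Argonaute protein, a miRNA pairs with target messenger RNAs mainly through its seed, the stretch from base 2 to base 8, and lowers their stability and translation. Brain tissue is rich in the let-7, miR-125, miR-9, miR-124, and miR-128 families, which act in neuronal differentiation, and hypoxia and ischemia are known to change the levels of many miRNAs.

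The sequences of the miRNAs on which the comparison turned are given 5′ to 3′ with the seed in capitals, from RefSeq (GRCm38.p6), in which 353 of the 410 miRNAs had an entry. MiR-3963 and miR-3968 are shown together because they had the smallest p-values and share letters. The next 4 hold stretches found in other genes. Then come 5 miRNAs whose seeds differ from each other, of which miR-5126 also holds such a stretch. The last group shares 1 seed.
miR-3963: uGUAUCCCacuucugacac
miR-3968: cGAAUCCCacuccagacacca
miR-1195: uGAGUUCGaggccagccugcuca
miR-3473a: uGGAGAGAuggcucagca
miR-3473b: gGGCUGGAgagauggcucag
miR-690: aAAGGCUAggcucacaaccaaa
miR-27a-5p: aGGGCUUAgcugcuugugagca
miR-1298-5p: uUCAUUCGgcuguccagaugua
miR-6240: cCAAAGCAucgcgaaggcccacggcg
miR-5126: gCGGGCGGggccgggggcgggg
miR-221-5p: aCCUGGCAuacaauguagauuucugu
miR-200b-3p: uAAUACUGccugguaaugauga
miR-200c-3p: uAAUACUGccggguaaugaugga
miR-429-3p: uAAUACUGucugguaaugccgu

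The cortex libraries held 1812883 to 3049198 mouse miRNA counts in the HIBI group and 2160270 to 3406624 in the sham group, and 10 CPM stood for 18.1 to 34.1 counts. The 10 most abundant miRNAs took 55.6% to 58.7% of the counts of a library, led by miR-125b-5p, miR-128-3p, and miR-9-5p. The HIBI libraries fell into pairs: the chi-square of their counts per degree of freedom was 105 between pups 1 and 4, 39.0 between pups 5 and 7, and 257 to 525.0 across these pairs, against 83.7 to 257 between sham pups. Summed let-7 levels followed the same pairs, at 78357 and 106449 CPM in pups 1 and 4 and 168273 and 163525 CPM in pups 5 and 7, with 104597 to 151904 CPM in sham. Library depth split the same way, with 1812883 and 2017170 counts in pups 1 and 4 and 3049198 and 2756951 in pups 5 and 7. The part of depth in these pairs was not tested. The cortex label was checked with the miRNAs of the Hox clusters, which mark hindbrain: their summed level was 36.3 to 98.2 CPM in the sham cortex and 661 to 1923 CPM in the sham cerebellum of the same pups. Neuronal miRNAs summed to 204393 to 241357 CPM in the sham cortex and to 140272 to 221974 CPM in the sham cerebellum. All 4 ranges used TMM normalization over the 24 libraries. The members just above the minimum of 10 CPM were miR-5129-5p (10.2 CPM) and miR-1955-5p (10.3 CPM), and the entries just below it were miR-187-5p (9.92 CPM) and miR-299a-3p (9.91 CPM).

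Most miRNAs differed little between the groups, and those that passed the study's criteria were almost all higher after HIBI. A fold change above 1.5 with an unadjusted p under 0.05 by edgeR's quasi-likelihood test was reached by 14 miRNAs (3.41% of 410). Of these, 13 were higher in HIBI (3.17%) and 1, miR-200b-3p, was lower (0.244%). All appear among the miRNAs that the study shows for the cortex, a list drawn from these same libraries and so no independent evidence of direction. Of the 13, 3 passed the minimum of 10 CPM through the HIBI group alone and could only be called higher (miR-3963, miR-1957a, and miR-126b-3p). An unadjusted p under 0.05 alone was reached by 19 miRNAs (4.63%), 15 higher and 4 lower. After Benjamini-Hochberg adjustment over the 410 miRNAs, 1 remained under 0.05 (0.244%), which was miR-3963. MiR-3963 entered the 410 through the HIBI group alone, so this call is no independent sign of a difference. Across all 410, 190 log2 fold changes were above 0 and 220 below, the median was -0.02, and the 10th and 90th percentiles were -0.31 and 0.35. Levels within a group varied by a median coefficient of variation of 18.5% in sham and 22.0% in HIBI.

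**Figure D1:**
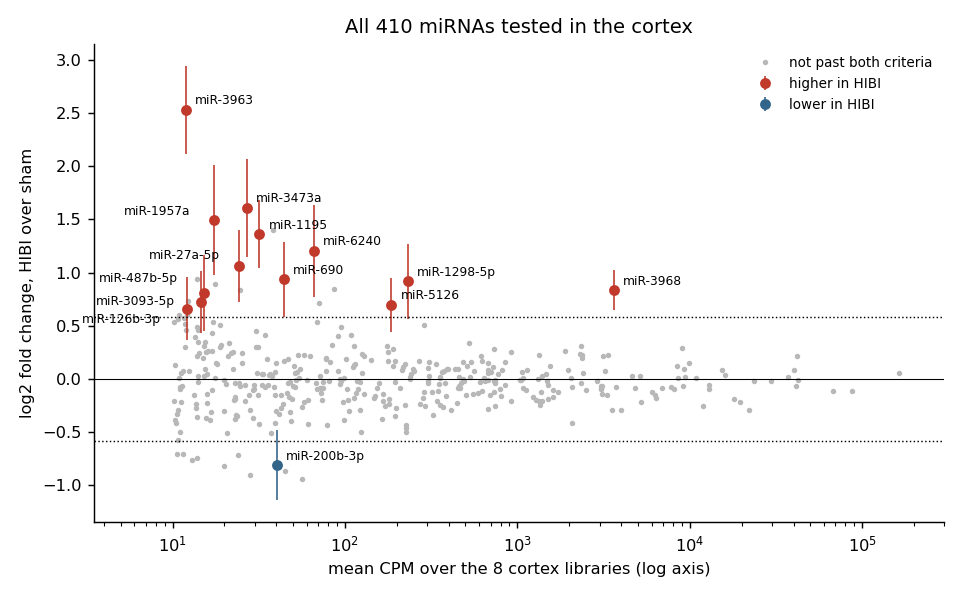
Log2 fold change of HIBI over sham (vertical axis) against mean CPM over the 8 cortex libraries (horizontal log axis) for the 410 miRNAs, with dotted lines at a fold change of 1.5. Bars on the 14 miRNAs past both criteria are standard errors; 11 of them lie between 10 and 100 CPM, and miR-3968 is the only one above 1000 CPM.

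MiRNAs of low abundance made up most of the 14. Between 10 and 100 CPM, 10 of 193 miRNAs passed both criteria upward and 1 downward. Between 100 and 1000 CPM it was 2 of 131, both upward, and above 1000 CPM 1 of 86, also upward. The median standard error of the log2 fold change was 0.317, 0.184, and 0.156 in these classes, in that order.

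Without a model, few miRNAs separated the groups. The 4 HIBI libraries lay entirely above or below the 4 sham libraries for 17 miRNAs (4.15%), above for 11 (2.68%) and below for 6 (1.46%). For each of these the two-sided exact permutation test on log2(CPM + 1) gave p = 0.0286, the smallest value that 4 against 4 libraries allow. With library size in place of TMM, the number was 11.

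MiR-3963 had the largest difference. It was at 4.58, 4.53, 2.30, and 2.52 CPM in sham pups 2, 3, 6, and 8, and at 20.8, 30.5, 19.8, and 10.5 CPM in HIBI pups 1, 4, 5, and 7. The groups did not overlap. The means were 3.49 ± 1.24 CPM in sham and 20.4 ± 8.21 CPM in HIBI (SD, n = 4), which is a log2 fold change of 2.53 (SE 0.414, edgeR quasi-likelihood adjusted p = 0.0222). These levels rest on few reads, 6 to 15 per sham library and 29 to 61 per HIBI library. It passed the minimum of 10 CPM through the HIBI group alone, as did 12 other members. Its adjusted p is thus no independent sign of a difference. The adjusted p was above 0.05 in 6 of the 8 fits that left out 1 library, from 0.0531 without HIBI pup 5 to 0.131 without sham pup 6, and under it without HIBI pup 4 (0.0440) or HIBI pup 7 (0.00843). Over all alternatives it ranged from 3.41e-06 by the edgeR likelihood ratio test to 0.131. The log2 fold change stayed between 2.27 and 2.75 in the fits with 1 library left out. The miRNA is listed on the minus strand at chr3:151023839-151023857 (GRCm38.p6), outside any other annotated gene.

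MiR-3968 was the most abundant miRNA to pass both criteria, 39th of the 410 by mean level. Its sham libraries were at 2525, 2302, 2003, and 3570 CPM (pups 2, 3, 6, and 8) and its HIBI libraries at 4394, 4502, 5669, and 3947 CPM (pups 1, 4, 5, and 7). Every HIBI library was higher than every sham library, with the narrowest gap between HIBI pup 7 and sham pup 8. The log2 fold change was 0.83 (SE 0.189, edgeR quasi-likelihood adjusted p = 0.160), between 0.72 and 1.02 with any 1 library left out. It lies at chr11:115447969-115447989, within an exon of Trim80 on the opposite strand. Aligned without gaps, 15 of the 19 bases of miR-3963 match miR-3968, the longest common run being aucccacu. The count of miR-3963 was 0.0707% to 0.197% of that of miR-3968 in sham and 0.265% to 0.678% in HIBI, and these ranges did not overlap. MiR-3968 ends in cca, as did 5 of the 353 miRNAs with a sequence. Those letters also close mature transfer RNAs, and transfer RNA genes were not searched.

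Next came miRNAs whose sequence recurs in the genome. MiR-1195 and miR-3473 resemble short interspersed repeats (B1 and B2), which are present in very many copies and in the transcripts of many genes. That is background: repeat annotation was not used here, and only annotated transcripts were searched. A stretch of 18 bases of miR-1195 was found in annotated transcripts of 626 other genes, of miR-3473a in 146, of miR-3473b in 511, of miR-690 in 8, and of miR-5126 in 2. Such a stretch was found for 4 of the 13 miRNAs past both criteria that have a sequence and for 24 of all 353. Reads of such sequences can come from several places, and the counting rule for them is not given in the sources used here.

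MiR-1195, at chr17:70860558-70860580 in an intron of a pseudogene, was at 19.7, 20.3, 12.7, and 18.9 CPM in sham pups 2, 3, 6, and 8 and at 43.2, 68.2, 25.9, and 46.5 CPM in HIBI pups 1, 4, 5, and 7, without overlap. This was a log2 fold change of 1.36 (SE 0.320, edgeR quasi-likelihood adjusted p = 0.160), and it passed both criteria in 8 of 8 fits with 1 library left out. MiR-3473a was at 13.3, 12.7, 8.35, and 19.3 CPM in sham and at 15.5, 80.9, 34.4, and 32.5 CPM in HIBI, in the same order of pups. HIBI pup 1 lay within the sham range and HIBI pup 4 far above the rest. The log2 fold change of miR-3473a was 1.61 (SE 0.458, edgeR quasi-likelihood adjusted p = 0.444) and 1.05 without HIBI pup 4, still past both criteria. MiR-3473b, which shares a run of 16 bases with miR-3473a, was at 6.42, 9.07, 13.2, and 15.6 CPM in sham and 13.9, 15.8, 16.2, and 32.1 CPM in HIBI, with overlap. Its log2 fold change of 0.82 (SE 0.375, edgeR quasi-likelihood adjusted p = 0.915) just missed the criterion of an unadjusted p under 0.05, and it was 0.46 without HIBI pup 7. It passed both criteria in 3 of the 8 fits. In the annotation, an intron of Syap1 holds miR-3473a in sense, and an intron of Ccdc162 holds miR-3473b in antisense.

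MiR-690 and miR-1957a were higher with overlapping groups. MiR-690, in an intron of the fibroblast growth factor gene Fgf12, was at 33.5, 42.3, 15.5, and 29.0 CPM in sham and at 81.0, 67.2, 50.3, and 32.5 CPM in HIBI. HIBI pup 7 lay inside the sham range and the other HIBI libraries above it, and the log2 fold change was 0.94 (SE 0.352). The criteria were no longer met without HIBI pup 1, HIBI pup 4, or sham pup 6 (0.73 to 0.85). MiR-1957a was at 4.13, 6.95, 13.0, and 12.2 CPM in sham and at 12.8, 48.4, 31.8, and 10.5 CPM in HIBI. HIBI pups 4 and 5 carried its log2 fold change of 1.49 (SE 0.516), which was 1.02 and outside the criteria without HIBI pup 4. It too passed the minimum through the HIBI group alone (sham mean 9.06 CPM).

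MiR-27a-5p was higher after HIBI, and the other arm of its hairpin did not pass the test. MiR-27a-5p lies at chr8:84208685-84208706 outside other genes and belongs to the miR-23a/27a/24-2 cluster, whose members act in vessels, metabolism, and cell death. The 5p arm was at 17.4, 10.9, 19.3, and 15.1 CPM in sham pups 2, 3, 6, and 8 and at 22.9, 19.9, 38.9, and 48.3 CPM in HIBI pups 1, 4, 5, and 7, without overlap. HIBI pups 5 and 7 were highest, and HIBI pup 4 was just above the highest sham library. In the fit this was 1.06 on the log2 scale (SE 0.339, edgeR quasi-likelihood adjusted p = 0.606), and both criteria were met in 8 of 8 fits with 1 library left out. The 3p arm was at 93.6 ± 6.19 CPM in HIBI and 95.0 ± 5.47 CPM in sham (SD, n = 4, edgeR quasi-likelihood adjusted p = 0.990). The 5p arm thus made up 25.1% ± 7.28 of the counts of both arms in HIBI and 14.1% ± 2.72 in sham, and these shares did not overlap. Of the 10 tested members of the miR-23/27/24 clusters, 1 passed both criteria, and the median log2 fold change was -0.02.

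Other miRNAs past both criteria also had a tested partner arm that did not pass. MiR-1298-3p was at 38.1 ± 11.2 CPM in HIBI and 46.3 ± 23.5 CPM in sham, miR-3093-3p at 15.2 ± 6.30 and 14.9 ± 8.26 CPM, and miR-487b-3p at 18027 ± 1653 and 20957 ± 2208 CPM (SD, n = 4). None of these passed an unadjusted p of 0.05 by edgeR's quasi-likelihood test. Their partner arms did, but the difference between arms was not tested. The share of the 5p arm in the counts of both arms overlapped between the groups in each pair. For miR-1298 it was 81.1% to 91.2% in HIBI and 70.8% to 85.3% in sham. For miR-3093 it was 46.3% to 68% in HIBI and 27.9% to 63.0% in sham. For miR-487b it was 0.0545% to 0.137% in HIBI and 0.0332% to 0.0595% in sham. MiR-3093-5p, beside the miR-9 hairpin on chromosome 3, was at 7.79, 15.4, 9.79, and 10.5 CPM in sham and at 20.3, 17.3, 18.2, and 17.0 CPM in HIBI. Its groups did not overlap, and the log2 fold change was 0.73 (SE 0.292). MiR-487b-5p, from the Dlk1-Dio3 imprinted locus on chromosome 12, was at 11.9, 10.9, 13.5, and 7.15 CPM in sham and at 25.1, 21.4, 9.40, and 21.3 CPM in HIBI. HIBI pup 5 fell among the sham libraries, and the log2 fold change was 0.81 (SE 0.355). MiR-126b-3p is encoded opposite the hairpin of the endothelial miRNA miR-126a in Egfl7. Its sham libraries were at 6.42, 11.5, 10.9, and 8.41 CPM and its HIBI libraries at 13.3, 14.3, 14.9, and 17.0 CPM, without overlap, and the log2 fold change was 0.66 (SE 0.295). Like miR-3963, it passed the minimum of 10 CPM through the HIBI group alone (sham mean 9.31 CPM), so its call is no independent sign of a difference. MiR-126a-3p was at 2950 ± 556 CPM in HIBI and 3144 ± 542 CPM in sham. Left out in turn, 5 of the 8 libraries ended the call of miR-3093-5p (0.60 to 0.73), 6 that of miR-487b-5p (0.66 to 0.85), and 5 that of miR-126b-3p (0.53 to 0.68). Leaving out sham pup 2 or sham pup 8 ended all 3 calls.

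Of 6 tested miRNAs encoded in introns of Htr2c, the serotonin 2C receptor gene on the X chromosome, 1 passed both criteria, miR-1298-5p. The summed level of the 6 overlapped between the groups, at 198 to 658 CPM in HIBI and 199.8 to 407 CPM in sham. MiR-1298-5p lies at chrX:147064918-147064939 in sense. The median log2 fold change of the 6 was 0.53. MiR-1298-5p was at 175.6, 128, 178, and 160.2 CPM in sham pups 2, 3, 6, and 8 and at 278, 96.2, 397, and 437 CPM in HIBI pups 1, 4, 5, and 7. Of the HIBI libraries 3 were above every sham library and HIBI pup 4 was below every one. The fitted log2 fold change was 0.92 (SE 0.354, edgeR quasi-likelihood adjusted p = 0.818), and the exact permutation p was 0.229. It was not past the criteria without HIBI pup 5, HIBI pup 7, or sham pup 3 (0.69 to 0.82). MiR-448-3p followed a like order, with 50.9, 28.4, 89.5, and 45.4 CPM in sham and 84.8, 38.2, 112, and 116 CPM in HIBI. Its log2 fold change was 0.71 (SE 0.386, edgeR quasi-likelihood adjusted p = 0.915). Without sham pup 6 it was 1.12, and it passed both criteria in 2 of 8 fits with 1 library left out. MiR-1264-3p was at 0.93 (SE 0.437, the same adjusted p by edgeR), with 4.62 to 14.7 CPM in sham and 11.7 to 25.1 CPM in HIBI, and passed in 4 of those 8 fits (0.72 to 1.29). It passed the minimum of 10 CPM through the HIBI group alone (sham mean 9.40 CPM), so its values are no independent sign of a difference. The median of the 6 and the counts by tool that follow are taken over a set that includes it. DESeq2 and the other edgeR tests called 2 of the 6 and limma-voom 1.

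Htr2c is strongly expressed in the choroid plexus, so the miRNAs of that tissue are given beside these. Of 10 listed choroid plexus and ciliated epithelium entries, 5 were tested, none passed an unadjusted p of 0.05 by edgeR's quasi-likelihood test or any other tool run, and the median log2 fold change was 0.48. MiR-204-5p, the most abundant of them, was at 1922, 2073, 1872, and 2472 CPM in sham pups 2, 3, 6, and 8 and at 1869, 2030, 3392, and 3036 CPM in HIBI pups 1, 4, 5, and 7. HIBI pups 5 and 7 were the highest libraries for both miR-1298-5p and miR-204-5p, while HIBI pup 1 was high for miR-1298-5p and lowest for miR-204-5p. The summed level of the 5 was 1974 to 3655 CPM in HIBI and 2023 to 2597 CPM in sham. The part of choroid plexus tissue in the result was not tested.

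MiR-6240 and miR-5126 were the other miRNAs to pass upward. MiR-6240, at chr5:114851973-114851998 outside other genes, was at 21.1, 77.1, 17.9, and 42.9 CPM in sham and at 136, 95.2, 61.3, and 75.8 CPM in HIBI. Only sham pup 3 reached into the HIBI range, and the log2 fold change of 1.20 (SE 0.431) was 1.76 without that library and 0.95, outside the criteria, without HIBI pup 1. MiR-6937-5p and miR-6238, which did not pass, showed a like order of libraries, with HIBI pup 1 highest and sham pups 2 and 6 lowest. MiR-6937-5p was at 5.50, 51.4, 6.91, and 18.1 CPM in sham and at 113.5, 53.4, 38.9, and 14.1 CPM in HIBI (log2 fold change 1.40, SE 0.705). Its value was 2.43, past both criteria, without sham pup 3 and 0.77 without HIBI pup 1. MiR-6238 was at 5.04, 22.4, 6.05, and 15.1 CPM in sham and at 28.3, 28.0, 15.6, and 19.8 CPM in HIBI (0.89, SE 0.451), and was at 1.38, past both criteria, without sham pup 3. MiR-6240 shares its seed with miR-330-3p, which is far more abundant (2535 ± 740 CPM in HIBI and 2213 ± 129.5 CPM in sham, n = 4).

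MiR-5126 (chr1:84695890-84695911) consists of G and C alone and lies opposite an exon of Dner, a neuronal ligand of the Notch receptor. It was at 87.1, 160.2, 160.1, and 158 CPM in sham pups 2, 3, 6, and 8 and at 293, 172, 169.9, and 284 CPM in HIBI pups 1, 4, 5, and 7. The groups did not overlap, but HIBI pups 4 and 5 lay just above 3 of the sham libraries, and sham pup 2 stood well below those. HIBI exceeded sham by 0.70 on the log2 scale (SE 0.252, edgeR quasi-likelihood adjusted p = 0.782), and this fell under the fold criterion without HIBI pup 1 (0.56), HIBI pup 7 (0.58), or sham pup 2 (0.53).

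**Figure D2:**
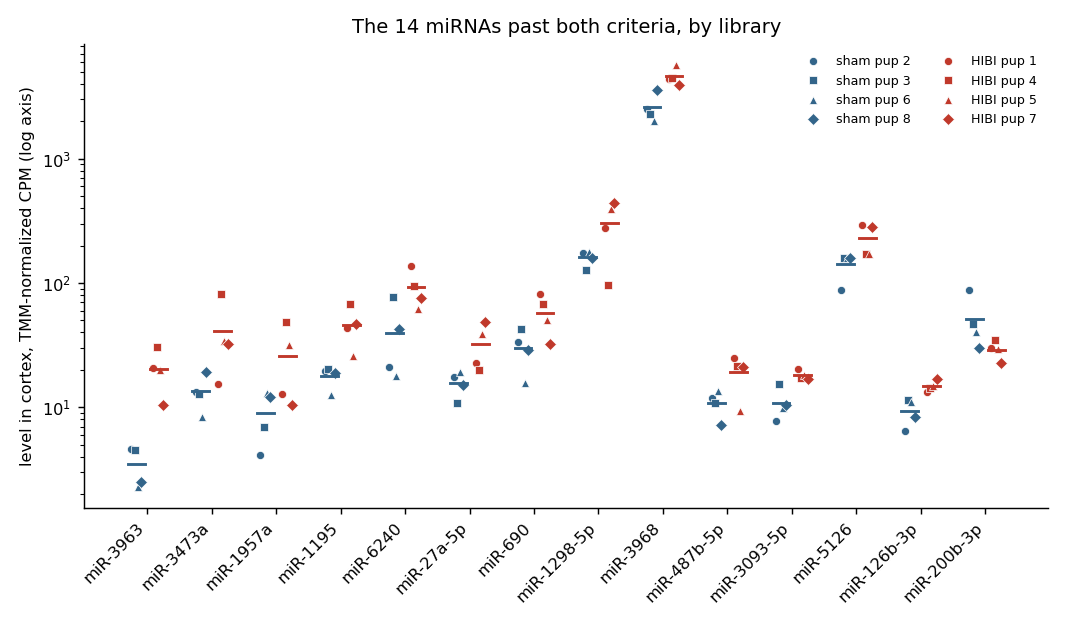
TMM-normalized CPM in the cortex (vertical log axis) of the 14 miRNAs past both criteria, with 1 point per library, sham in blue and HIBI in red, and bars at the group means. The 7 miRNAs without overlap are miR-3963, miR-1195, miR-27a-5p, miR-3968, miR-3093-5p, miR-5126, and miR-126b-3p; in the other 7 at least 1 HIBI library lies within or beyond the sham range.

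MiR-200b-3p was the 1 miRNA lower in HIBI by both criteria, and it depended on 1 sham pup. The miR-200 family keeps epithelial identity by repressing the transcription factors ZEB1 and ZEB2, and its members share a seed. MiR-200b-3p (chr4:156055685-156055706) and miR-429-3p (chr4:156053916-156053937) lie side by side in introns of Ttll10. MiR-200b-3p was at 88.0, 46.6, 40.3, and 29.8 CPM in sham pups 2, 3, 6, and 8 and at 29.9, 34.6, 29.2, and 22.7 CPM in HIBI pups 1, 4, 5, and 7. Sham pup 2 was high and sham pup 8 lay within the HIBI range. Its log2 fold change was -0.81 (SE 0.331, edgeR quasi-likelihood adjusted p = 0.826) and -0.42, outside the criteria, without sham pup 2. The call was also lost without HIBI pup 5 (-0.82) or HIBI pup 7 (-0.71). MiR-200c-3p was at -0.72 (SE 0.531) and miR-429-3p at -0.51 (SE 0.304), neither past an unadjusted p of 0.05. MiR-200c-3p was at -0.12 without sham pup 2 and -0.43 without HIBI pup 1, and miR-429-3p at -0.22 without sham pup 3. Sham pup 2 also stood high for miR-200c-3p, at 61.0 CPM against 5.33 to 30.5 CPM in the other 7 libraries. For miR-429-3p the log2 fold change without sham pup 2 was -0.52, close to its value with all libraries. MiR-182-5p and miR-183-5p of sensory and pineal tissue summed to 299.8 CPM in sham pup 2 and to 29.9 to 87.5 CPM in the others. The part of tissue carried over in that library was not tested.

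Among the miRNAs with an unadjusted p under 0.05 but a fold change under 1.5, miR-221-5p had the smallest p. MiR-221 is known from endothelial and proliferating cells. Its 5p arm was at 264, 257, 253, and 279 CPM in sham and at 171, 173, 204, and 215 CPM in HIBI, every HIBI library below. HIBI was at -0.46 relative to sham on the log2 scale (SE 0.144, edgeR quasi-likelihood adjusted p = 0.606), between -0.52 and -0.41 and with an unadjusted p under 0.05 in 8 of 8 fits with 1 library left out. MiR-140-3p, from the Wwp2 locus, was lower as well (285 ± 27.3 against 360 ± 39.0 CPM, n = 4, log2 fold change -0.34, SE 0.142), without overlap. MiR-124-5p, the minor arm of a neuronal miRNA, was at 193 ± 23.5 against 261 ± 50.8 CPM (-0.44, SE 0.175), with overlap. Higher were miR-154-3p of the Dlk1-Dio3 locus (80.7 ± 13.9 against 55.6 ± 5.36 CPM, 0.54, SE 0.201), without overlap, and the imprinted miR-296-5p (339 ± 96.8 against 238 ± 47.5 CPM, 0.51, SE 0.218), with overlap. With 1 library left out, the unadjusted p stayed under 0.05 in 3 of 8 fits for miR-140-3p, 4 for miR-124-5p, 6 for miR-154-3p, and 3 for miR-296-5p, which was at 0.34 without HIBI pup 4. MiR-124-3p, the major arm, was at 41053 ± 9456 CPM in HIBI and 38850 ± 1655 CPM in sham. MiR-410-5p, of the same imprinted locus, was at 52.3, 52.0, 54.1, and 74.0 CPM in sham and at 18.7, 12.7, 28.5, and 66.0 CPM in HIBI. HIBI pup 7 was in the sham range, and the log2 fold change was -0.87 (SE 0.423, edgeR quasi-likelihood adjusted p = 0.915). Without HIBI pup 7 it was -1.52 and past both criteria, the only one of the 8 fits with a library left out in which it was.

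A further 7 miRNAs did not overlap between the groups with an unadjusted edgeR quasi-likelihood p above 0.05, and they are named because of that pattern. MiR-3104-3p, miR-673-3p, and miR-320-3p were higher in all 4 HIBI libraries. MiR-370-3p, miR-434-5p, miR-100-5p, and miR-466g were lower in all 4. For example, miR-434-5p was at 1406 to 1562 CPM in sham and at 1257 to 1339 CPM in HIBI.

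Lists of miRNAs with a known role or source were counted beside the 410. Hypoxia-linked miRNAs showed no call: miR-103-3p and miR-107-3p, which target the processing enzyme Dicer, were at 17005 ± 1522 and 743 ± 134 CPM in HIBI and at 19375 ± 1864 and 749 ± 53.1 CPM in sham. MiR-210-3p, the best known miRNA induced by hypoxia, was below the minimum, with 3.24 to 4.33 CPM in HIBI and 2.52 to 10.3 CPM in sham. At 30 min after injury its level in HIBI thus lay inside the sham range. The ischemia-related miR-181 family had 0 of 6 members past both criteria, the list of activity-regulated miRNAs 0 of 7, and the let-7 family, whose sums split the HIBI pups as given above, 0 of 17. None of the members of these lists or of the hypoxia list reached an unadjusted p of 0.05 by edgeR's quasi-likelihood, likelihood ratio, or exact test, DESeq2, or limma-voom. For these 3 families and lists, in that order, the median log2 fold changes were -0.04, -0.10, and -0.02. MiR-132-3p, which neuronal activity induces, was at 2937 ± 424 CPM in HIBI and 3239 ± 381 CPM in sham.

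Lists of cell types gave few calls. Of 18 neuronal miRNAs none passed both criteria and 1, miR-124-5p, had an unadjusted p under 0.05 by edgeR's quasi-likelihood test and by each other tool (median log2 fold change -0.09). Of 6 myeloid and inflammatory miRNAs, 4 oligodendrocyte, and 4 erythrocyte miRNAs, none had such a p by edgeR's quasi-likelihood test or any other tool, with medians of -0.06, 0.23, and -0.09. Their summed levels overlapped between the groups: 1900 to 2145 CPM in HIBI and 1816 to 2026 CPM in sham for the myeloid list, and 771 to 1095 and 753 to 1124 CPM for the erythrocyte list. Among defining markers, the myeloid miR-142a-3p had no count in any HIBI library and 0 to 1.38 CPM in sham. Its partner arm miR-142a-5p went the other way, at 0 to 1.53 CPM in HIBI and 0 to 0.605 CPM in sham. Both arms were far below the minimum and too low to compare. MiR-451a of red blood cells was at 172 ± 36.3 CPM in HIBI and 220 ± 62.6 CPM in sham. Of 6 endothelial and mural miRNAs, 1 passed, miR-126b-3p, which DESeq2 did not call and which is not tested where both groups must exceed the minimum (median 0.06). The single muscle miRNA tested and the 2 Hox cluster miRNAs did not reach an unadjusted p of 0.05 by any tool. The Dlk1-Dio3 imprinted locus, the largest miRNA cluster of the mouse brain, had 64 tested members, of which 1 passed both criteria, 22 were above 0, and 42 below, with a median of -0.09 beside -0.02 over all 410.

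The list with the most calls was that of late miRBase entries, numbered 1900 or higher in the miRNA registry. Of its 40 tested members, 7 passed both criteria, all higher in HIBI, and the median log2 fold change was 0.18. Of the other 370 miRNAs, 6 passed upward and 1 downward, and the median was -0.03. The 7 were miR-3963, miR-3968, miR-3473a, miR-1957a, miR-6240, miR-5126, and miR-3093-5p. MiR-3963 and miR-1957a entered the 40 through the HIBI group alone and therefore had to be higher there, which bears on the contrast with the other 370. With the minimum set in both groups, 6 late entries passed both criteria. Summed over the 40, the level was 11185, 11242, 11428, and 10548 CPM in HIBI pups 1, 4, 5, and 7 and 8703, 8443, 8051, and 9679 CPM in sham pups 2, 3, 6, and 8. These ranges did not overlap, but miR-3968 set most of the gap: without it they were 5759 to 6791 CPM in HIBI and 6048 to 6178 CPM in sham. The 13 miRNAs past both criteria that have a sequence had a median GC content of 54.5%, against 47.8% over 353, and 13 different seeds.

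**Figure D3:**
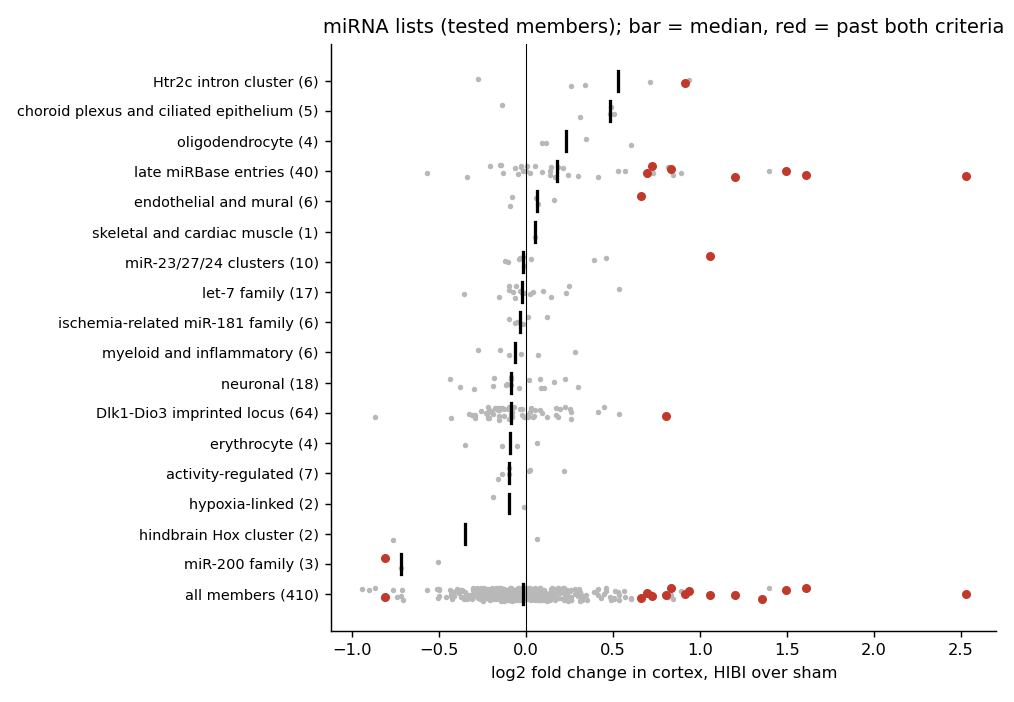
Log2 fold change of HIBI over sham in the cortex (horizontal axis) of the tested members of each list, whose number stands in brackets; a black bar marks the median and red points passed both criteria. The late miRBase entries hold 7 of the 14 red points, and the 3 members of the miR-200 family all lie below 0.

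With each library left out in turn, 10 to 17 miRNAs passed both criteria, 10 of them without sham pup 2. MiR-3963, miR-3968, miR-1195, miR-3473a, and miR-27a-5p passed in all 8 fits, and miR-1957a and miR-6240 in 7. MiR-690 and miR-5126 passed in 5, as did miR-1298-5p and miR-200b-3p. MiR-3093-5p and miR-126b-3p passed in 3 and miR-487b-5p in 2. The highest of the 8 libraries was HIBI pup 1 for 5 of the 13 miRNAs that were higher, HIBI pup 4 for 4, HIBI pup 7 for 3, and HIBI pup 5 for 1, so no single HIBI pup was highest throughout.

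**Figure D4:**
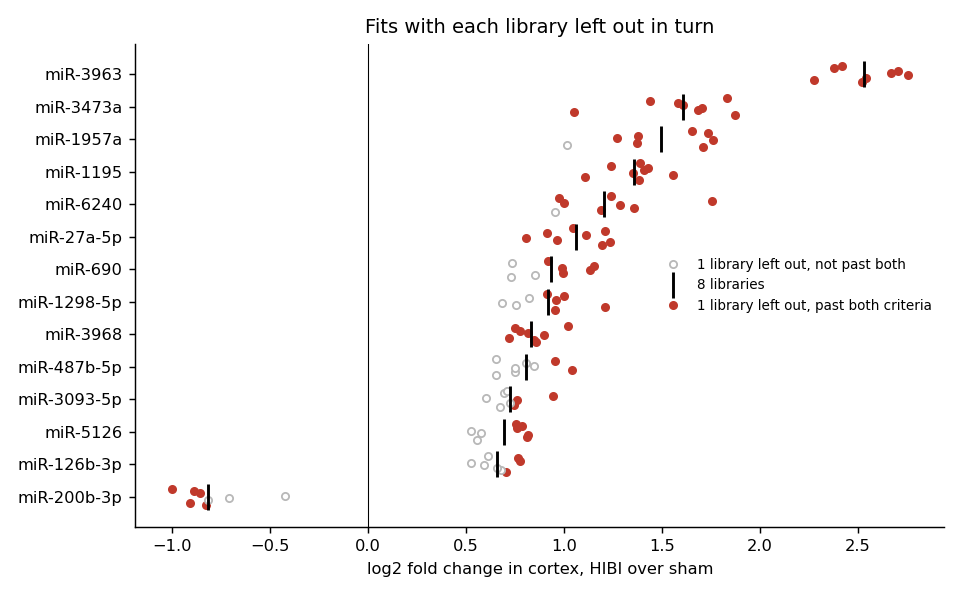
Log2 fold change of HIBI over sham in the cortex (horizontal axis) of the 14 miRNAs in 8 fits that each leave out 1 library (points) and in the fit of 8 libraries (vertical bars); red points passed both criteria and open points did not. The sign is the same in every fit shown, and miR-200b-3p without sham pup 2 comes closest to 0, at -0.42.

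The same pups gave the striatum/thalamus and the cerebellum, which allowed the effect in the cortex to be set against the effect elsewhere in 1 model of 24 libraries. The striatum/thalamus lies in the same arterial territory, and the cerebellum is fed by other arteries. The effect in the cortex differed from that in the striatum/thalamus with an unadjusted p under 0.05 for 6 miRNAs (1.46%) and from that in the cerebellum for 39 (9.51%). By edgeR's quasi-likelihood test with Benjamini-Hochberg adjustment, 0 of 410 differed in either comparison (0%), with smallest adjusted p-values of 0.313 and 0.464. With the pup as a block, 8 and 57 had an unadjusted p under 0.05, and again 0 passed after adjustment in either. Against the cerebellum, 20 of the 39 were higher and 19 lower in the cortex, a split that became 8 and 42 with library size in place of TMM. That scaling moved the median difference of all miRNAs from -0.06 to -0.28. With a minimum of 10 CPM in every region it was 15 and 29. Leaving out sham pup 2, sham pup 3, or HIBI pup 5 turned the 39 into 9, 24, and 20. Against the striatum/thalamus, the 6 became 11 without HIBI pup 4, 14 without HIBI pup 5, 2 without sham pup 3, and 3 without sham pup 6.

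MiR-3963 was higher in HIBI in all regions by an unadjusted p under 0.05 in the fit of 24 libraries. Its log2 fold changes were 2.52 (SE 0.582) in the cortex, 1.27 (SE 0.548) in the striatum/thalamus, and 1.35 (SE 0.568) in the cerebellum. The differences of 1.25 (SE 0.786) and 1.17 (SE 0.804) had unadjusted p-values of 0.126 and 0.159, and 0.0349 and 0.0401 with the pup as a block, none under 0.05 after adjustment (adjusted p = 0.999 and 0.624 without the block, edgeR quasi-likelihood test). Without HIBI pup 1 the difference with the cerebellum was 2.09, with an unadjusted p under 0.05. MiR-3963 entered the miRNAs tested through the HIBI group of the cortex alone, which favors a larger effect there. These regional differences are thus no independent sign of a stronger effect in the cortex. MiR-3968 was at 0.83 (SE 0.313) in the cortex, 0.72 (SE 0.313) in the striatum/thalamus, and -0.26 (SE 0.311) in the cerebellum. The cortex exceeded the cerebellum by 1.09 (SE 0.441, unadjusted p = 0.0208, edgeR quasi-likelihood adjusted p = 0.464), and by 0.77 to 1.53 with 1 pup left out. That unadjusted p was over 0.05 without sham pup 2, sham pup 3, or HIBI pup 5, and with library size in place of TMM (0.82).

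MiR-5126 was at 0.68 (SE 0.336) in the cortex, 0.12 (SE 0.333) in the striatum/thalamus, and -0.85 (SE 0.335) in the cerebellum. The cortex exceeded the cerebellum by 1.53 (SE 0.475, unadjusted p = 0.00364, edgeR quasi-likelihood adjusted p = 0.464), and by 1.17 to 1.89 with 1 pup left out. For miR-1298-5p the corresponding values were 0.91 (SE 0.591), 1.40 (SE 0.597), and -0.85 (SE 0.587), and the cortex exceeded the cerebellum by 1.76 (SE 0.832, unadjusted p = 0.0446, edgeR quasi-likelihood adjusted p = 0.470). The unadjusted p was over 0.05 with the pup as a block (1.49) and without HIBI pup 5 or 7 or sham pup 2, 3, or 8, the difference being 1.14 without sham pup 2. MiR-410-5p went the other way, lower by 1.78 on the log2 scale in the cortex than in the cerebellum (difference -1.78, SE 0.651, unadjusted p = 0.0115, edgeR quasi-likelihood adjusted p = 0.464). The smallest p against the striatum/thalamus belonged to miR-128-1-5p, an arm of a neuronal miRNA, which is named because of that value. It was at 44.7 ± 6.31 CPM in HIBI and 51.4 ± 15.8 CPM in sham in the cortex, and at 25.2 ± 11.5 and 7.41 ± 3.97 CPM in the striatum/thalamus (SD, n = 4). The difference of the effects was -1.97 (SE 0.511, unadjusted p = 0.000763, edgeR quasi-likelihood adjusted p = 0.313), between -2.32 and -1.55 with 1 pup left out.

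**Figure D5:**
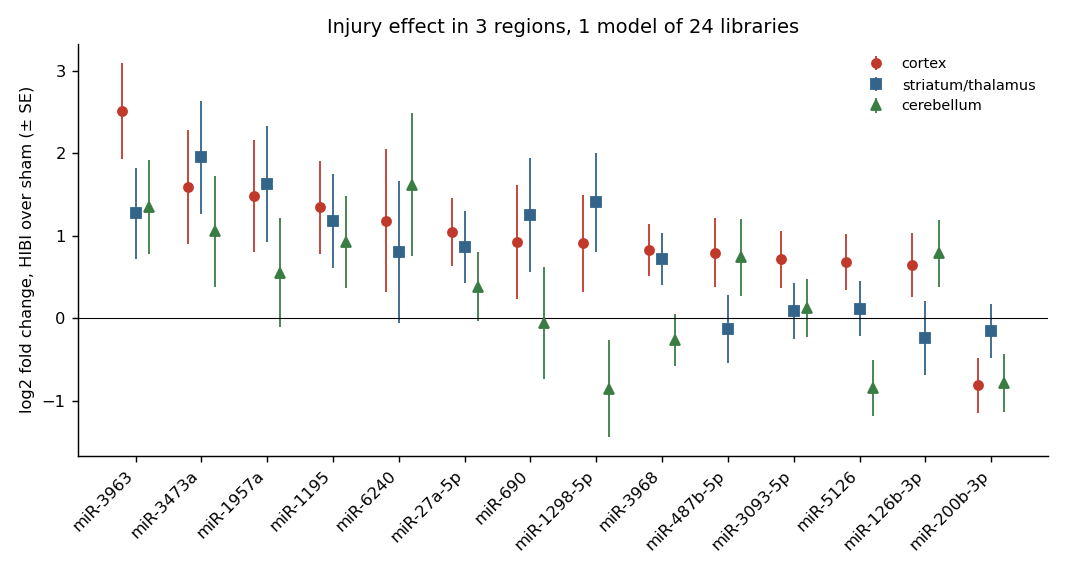
Log2 fold change of HIBI over sham with standard errors (vertical axis) of the 14 miRNAs in the cortex, striatum/thalamus, and cerebellum, from 1 model of 24 libraries. MiR-3968, miR-5126, and miR-1298-5p lie above 0 in the cortex and below 0 in the cerebellum, and miR-3963 lies above 0 in all regions.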

How the data were processed

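Small RNA libraries (NEXTFLEX Small RNA Kit, 200 ng RNA, NextSeq 550) were aligned by the authors with Bowtie2 to mature miRBase sequences; versions and the rule for reads matching several miRNAs are not given in the sources used here. The deposited values used were the raw counts per miRNA and library. The deposited fold changes, log CPM, p-values, and FDR were not used, nor were 20 castor bean entries (34 counts in the cortex). Groups came from the sample labels. Each pup gave 1 library per region, so p-values of the cortex comparison measure the spread between pups. In the regional comparison, libraries of the same pup were treated as independent unless the pup was a block. No 2 replicate libraries of the cortex agreed within sampling noise (chi-square per degree of freedom 39.0 to 525.0 over 12 pairs).

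MiRNAs with a mean above 10 CPM over 8 cortex libraries were tested with edgeR 4.0.16 (R 4.3.3; TMM, quasi-likelihood test, Benjamini-Hochberg adjustment over 410), after a test on simulated counts. The standard error is the absolute log2 fold change divided by the square root of F. Of the 410, 13 passed the minimum through the HIBI mean alone and 10 through the sham mean alone. A two-sided exact permutation test used log2(CPM + 1). Regions were compared by the interaction of region and injury over 24 libraries. Same-numbered pups gave all regions: their deviations from the group means correlated across miRNAs by a median of 0.215 (cortex with striatum/thalamus) and 0.287 (cortex with cerebellum), above 0.1 in 7 of 8 pups each. Alternatives were other scalings, minimums, edgeR tests, DESeq2 1.42.0, limma 3.58.1 (voom), 1 model of 24 libraries, the pup as a block, and each library left out, with the same 410 miRNAs kept. Sequences and positions are RefSeq's on GRCm38.p6, matched by name. Named were miRNAs past both criteria (fold change above 1.5, unadjusted p under 0.05), the 3 smallest p in each direction, those the study shows for the cortex, the most abundant, the leading members of each list, and partner arms, seed sharers, and neighbors within 10 kb of the first; others were chosen after their values were seen (miR-128-1-5p and the further miRNAs whose groups did not overlap). The miRNAs and lists were chosen with earlier results of these data known.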

Additional observations from a re-analysis of the deposited data

Results flagged for a closer look

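Within a group of 4 libraries, 1 library stood farther from the rest than Dixon's test allows (by its gap to the nearest library relative to the range of the group) in 5 of 82 groups examined, for the 41 miRNAs whose fold change or level by group is given. Chance alone gives such a gap in about 1 in 20 groups. MiR-1195 was low in sham pup 6, at 12.7 CPM, and miR-487b-5p was low in HIBI pup 5, at 9.40 CPM. MiR-5126 was low in sham pup 2, at 87.1 CPM, and its log2 fold change without that library was 0.53. MiR-27a-3p was high in sham pup 2, at 103.1 CPM, and miR-410-5p was high in sham pup 8, at 74.0 CPM.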

How the results depend on the processing

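The direction of the 14 miRNAs past both criteria was the same under every alternative in which they were tested. The count of 14 of 410 (13 higher, 1 lower) became 41 of 698 (32 and 9) with a mean above 1 CPM. With no minimum it was 86 of 1290 (54 and 32), and with all 24 libraries in 1 model 7 of 410 (6 and 1). It was 12 to 19 under the other scalings, tests, and minimums, with 2 lower by DESeq2 and 3 by the edgeR likelihood ratio test, the edgeR exact test, and limma-voom; the cause was not tested. Adjusted p under 0.05 was reached by 9 of 1290 miRNAs with no minimum, 4 of 410 by DESeq2, and 3 of 410 by the likelihood ratio and exact tests. It was reached by 0 of 387 with the minimum set in both groups, which removes miR-3963 by construction. In the model of 24 libraries it was reached by 0 of 410, where 7 passed both unadjusted criteria. Late miRBase entries past both criteria were 11 with no minimum, where more of them were tested, and 4 in the model of 24 libraries, in place of 7. With library size only, 11 miRNAs did not overlap and 11 had an exact permutation p under 0.05, in place of 17. With 1 library left out, the count ranged from 10 to 17, higher calls from 10 to 15, lower calls from 0 to 3, and adjusted calls from 0 to 2. MiRNAs without overlap were then 19 to 34 of 410. A group with a library left out separates more easily, so this range cannot be set against the 17. Differences with the striatum/thalamus ranged from 2 to 14 and with the cerebellum from 9 to 56 with 1 pup left out, and 0 passed after adjustment in any of these fits. The pup as a block gave 8 and 57 in place of 6 and 39. It changed the call for miR-3963 and miR-1298-5p as given above and for no other regional difference printed. Depth limits miRNAs near 10 CPM, for which a library held 18.1 to 34.1 counts.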
